A study of Mus musculus with 6 samples.

Results

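High mobility group (HMG) proteins are small, abundant chromatin proteins that bind nucleosomes or DNA with little sequence preference. The 8 genes described here, Hmga1, Hmga1b, Hmga2, Hmgb1, Hmgb2, Hmgb3, Hmgn1 and Hmgn2, were taken by symbol from the 16022 genes of the deposited table, and all 8 were among the 12875 genes that passed a filter on low counts. They were chosen from this knockout against wild-type contrast, in which Hmga1 and Hmga1b had moved in opposite directions. Their differences are therefore given as a description, with fold changes and errors. Counts of members called are set beside the shares of all tested genes, and nothing is read from them. The RNA came from LSK cells of mouse bone marrow, which lack lineage markers, carry c-kit and have high Sca-1, a fraction that holds stem cells and early progenitors. There were 3 libraries from wild-type (WT) mice and 3 from HDAC6 knockout mice. HDAC6 is a mainly cytoplasmic deacetylase. The libraries held 25993988 to 28743694 counts each. The sources used here do not give the knockout allele or the age and sex of the mice, nor do the labels say that the libraries came from separate animals, so every error below measures the spread between these libraries.

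The targeted gene served to check the labels. Hdac6 stood at 67.97, 58.24 and 54.32 CPM in WT replicates 1 to 3 against 9.62, 7.69 and 11.28 CPM in the knockout, where CPM is the count scaled to the TMM-normalised size of its library. It fell by 2.66 on the log2 scale (SE 0.19, edgeR adjusted p = 0.000594). The gate genes were present over the 6 libraries. Kit, the c-kit receptor, was at 725 to 1367 CPM and Ly6a, which encodes Sca-1, at 60.28 to 119.27 CPM. The T cell gene Cd3e was at most 0.15 CPM, but other markers of mature blood cells were detected. In WT, Ngp was at 10.11 to 30.13 CPM, Cd79a at 2.65 to 12.16 CPM and Pf4 at 20.74 to 31.7 CPM.

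The HMG genes form 3 families. HMGA proteins carry AT-hooks that grip the minor groove of AT-rich DNA, HMGB proteins carry HMG boxes that bend DNA, and HMGN proteins bind the nucleosome core and compete with linker histone H1. In blood, Hmga2 is known as a gene of fetal stem cells held down by let-7 microRNAs, Hmgb3 as a gene of early progenitors, and Hmgb2 as a gene that dividing cells express highly.

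Hmga1 on chromosome 17 and Hmga1b on chromosome 11 are separate genes, which matters for every count of either. In the GENCODE M21 transcripts of GRCm38, the 324-base coding sequence of Hmga1 was identical to that of Hmga1b in 324 of 324 bases. Its first 240 bases are printed once because they stand for both genes, and because a read from within it cannot be assigned to either by its letters. The capitals mark the 33 bases, positions 103 to 135 from the start codon, that a shorter Hmga1 transcript of 291 coding bases leaves out.
Hmga1 and Hmga1b: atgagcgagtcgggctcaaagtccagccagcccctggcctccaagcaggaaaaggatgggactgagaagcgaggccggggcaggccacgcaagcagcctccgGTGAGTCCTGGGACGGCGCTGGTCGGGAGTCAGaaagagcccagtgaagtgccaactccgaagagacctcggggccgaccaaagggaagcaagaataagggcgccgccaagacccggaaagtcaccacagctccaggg

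The genes differed outside that stretch. Of the 100-base windows that start in the 499 bases before the start codon of the longest Hmga1 transcript, 7.21% were also present in a transcript of Hmga1b. All windows that start in the 95 bases before the start codon of Hmga1b were present in Hmga1. After the stop codon, 72.2% of the windows of Hmga1 and 70.8% of those of Hmga1b were shared. The longest transcripts therefore held windows of their own mostly in the leader of Hmga1 and in parts after the stop codon of both.

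The deposited counts carried a trace of this overlap. Neither gene had a whole count in any library, but their sum was a whole number, to within 0.01 counts, in 6 of 6 libraries. In WT replicate 1, for example, 3032.86 counts of Hmga1 and 3570.14 of Hmga1b added to 6603. Among the 2270 genes whose count was not whole in any library, Hmga1b was the 1 gene that completed Hmga1 in this way in all 6 libraries. How reads that fit both genes were divided between them is something the sources used here do not state.

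The division itself differed between libraries. Hmga1b took 54.1% of the summed counts in WT replicate 1 (95% exact binomial interval 52.9% to 55.3%), 53.1% (51.9% to 54.3%) in WT replicate 2 and 55.4% (54.2% to 56.5%) in WT replicate 3. Knockout replicate 1, at 52.4% (51.4% to 53.3%), was close to the WT libraries. Knockout replicates 2 and 3 stood apart from the other 4 libraries, at 93.7% (93.2% to 94.1%) and 93.8% (93.2% to 94.3%). These intervals treat every count as an independent read of 1 gene and leave out the spread between libraries. Since the counts include divided reads, the intervals may be too narrow even for counting error. The split therefore did not set all 3 knockout libraries apart from WT.

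**Figure D1:**
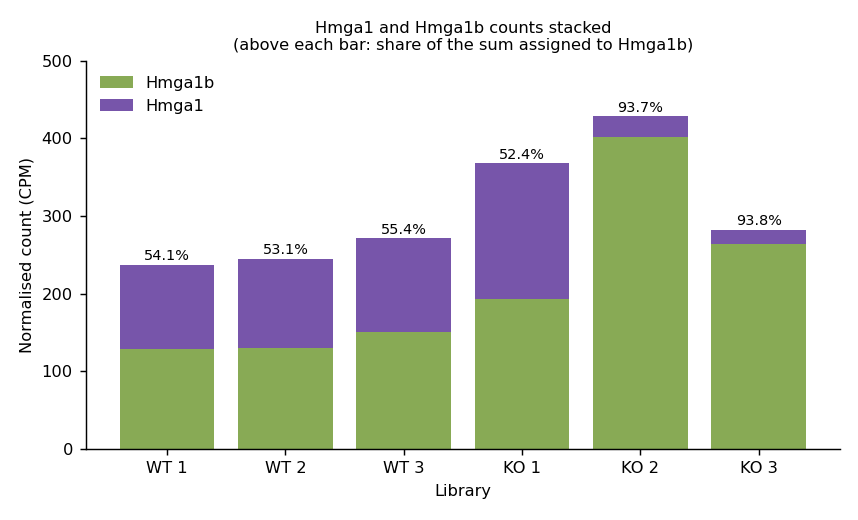
Stacked bars give the TMM-normalised CPM of Hmga1b (lower part) and Hmga1 (upper part) in each library, with the share of the summed counts assigned to Hmga1b above each bar. The share is 52.4% to 55.4% in the WT libraries and knockout replicate 1 and 93.7% to 93.8% in knockout replicates 2 and 3, while the bar heights of the knockout, 282 to 429 CPM, all exceed those of WT, 237 to 271 CPM.

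Taken as deposited, Hmga1 measured 108.9, 114.92 and 121.13 CPM in WT replicates 1 to 3 and 175.38, 27.15 and 17.55 CPM in knockout replicates 1 to 3. Knockout replicate 1 lay above all WT libraries and the other knockout libraries lay far below them, so the groups overlapped. The mean was 115 ± 6.12 CPM in WT against 73.4 ± 88.5 CPM in knockout libraries (SD, n = 3 each), with a log2 fold change of -0.65 (SE 0.93). This value rests on single libraries: it was -2.36 without knockout replicate 1, -0.25 without knockout replicate 2 and -0.18 without knockout replicate 3. It was -1.45 with limma-voom and sample weights, and -1.45 with the replicate number as a block, and -1.43 on the log2(FPKM + 1) scale.

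Hmga1b measured 128.18, 130.01 and 150.24 CPM in WT against 192.71, 401.5 and 264.35 CPM in knockout libraries. All knockout libraries lay above all WT libraries. The means were 136 ± 12.2 and 286 ± 106 CPM (SD, n = 3 each), a 2.10-fold difference with a log2 fold change of 1.07 (SE 0.22). Leaving out knockout replicate 2 gave 0.75 and leaving out knockout replicate 1 gave 1.29.

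The summed counts, which do not depend on how reads are divided between the 2 genes, were 237.09, 244.93 and 271.38 CPM in WT against 368.07, 428.63 and 281.9 CPM in knockout libraries. Every knockout library exceeded every WT library, with knockout replicate 3 nearest to WT replicate 3. The means were 251 ± 18.0 and 360 ± 73.7 CPM (SD, n = 3 each), a ratio of 1.43 and a log2 fold change of 0.52 (SE 0.15). The sum therefore sat on the side of Hmga1b and not of Hmga1. It kept that side without each library in turn, from 0.37 without knockout replicate 2 to 0.67 without knockout replicate 3.

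Hmga2, the HMGA gene of fetal stem cells, was at a low level. It measured 6.36, 5.3 and 3.6 CPM in WT against 3.23, 2.32 and 4.39 CPM in knockout libraries, so the groups overlapped through WT replicate 3 and knockout replicate 3. The log2 fold change was -0.62 (SE 0.38). Leaving out each library in turn gave -0.87 (without knockout replicate 3) to -0.42 (without knockout replicate 2 or WT replicate 1), and the log2(FPKM + 1) scale gave -0.37. No deposited count of Hmga2 was split, and 0 of its 100-base transcript windows occurred in another gene.

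As a known target of let-7, Hmga2 is shown with the mature let-7g-5p of RefSeq (GRCm38.p6), whose seed, bases 2 to 8, is in capitals. The microRNA itself was not measured here.
let-7g-5p: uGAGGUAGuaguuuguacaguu

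The seed match CTACCTC, searched on the sense strand of the transcript only, occurred 4 times in the 3014 bases after the stop codon of Hmga2. At least 1 match was found in 9.18% of the 20657 genes searched, and in 25.3% of the 2779 genes with a region at least as long, of which 8 held 4 or more. Hmga1 and Hmga1b held 1 match each, and 0 matches lay in Hmgb1, Hmgb2, Hmgb3, Hmgn1 and Hmgn2. A match is a description of sequence and not a measured site.

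Of the HMGB genes, Hmgb2 had the largest fold change. It measured 994.28, 926.78 and 869.14 CPM in WT against 1315.41, 1132.98 and 1094.93 CPM in knockout libraries. The groups did not overlap, with means of 930 ± 62.6 and 1181 ± 118 CPM (SD, n = 3 each) and a log2 fold change of 0.34 (SE 0.10). Leaving out each library in turn gave 0.26 to 0.40.

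Hmgb1, which also acts outside the cell as an alarmin, measured 2073.91, 1860.67 and 1602.76 CPM in WT against 2406.61, 2009.08 and 1869.74 CPM in knockout libraries. The ranges overlapped, knockout replicates 2 and 3 lying below WT replicate 1. Its log2 fold change was 0.18 (SE 0.13), and ran from 0.07 without knockout replicate 1 to 0.28 without WT replicate 1. Hmgb3, an X-linked gene, measured 358.32, 249.21 and 244.35 CPM in WT against 301.11, 261.31 and 286.83 CPM in knockout libraries. WT replicate 1 was the highest of all libraries, the other WT libraries were the lowest, and the knockout lay between them. The log2 fold change was -0.0045 (SE 0.15), and its sign turned under 7 of 16 alternative settings. Leaving out each library in turn gave -0.10 (without WT replicate 3) to 0.20 (without WT replicate 1).

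**Figure D2:**
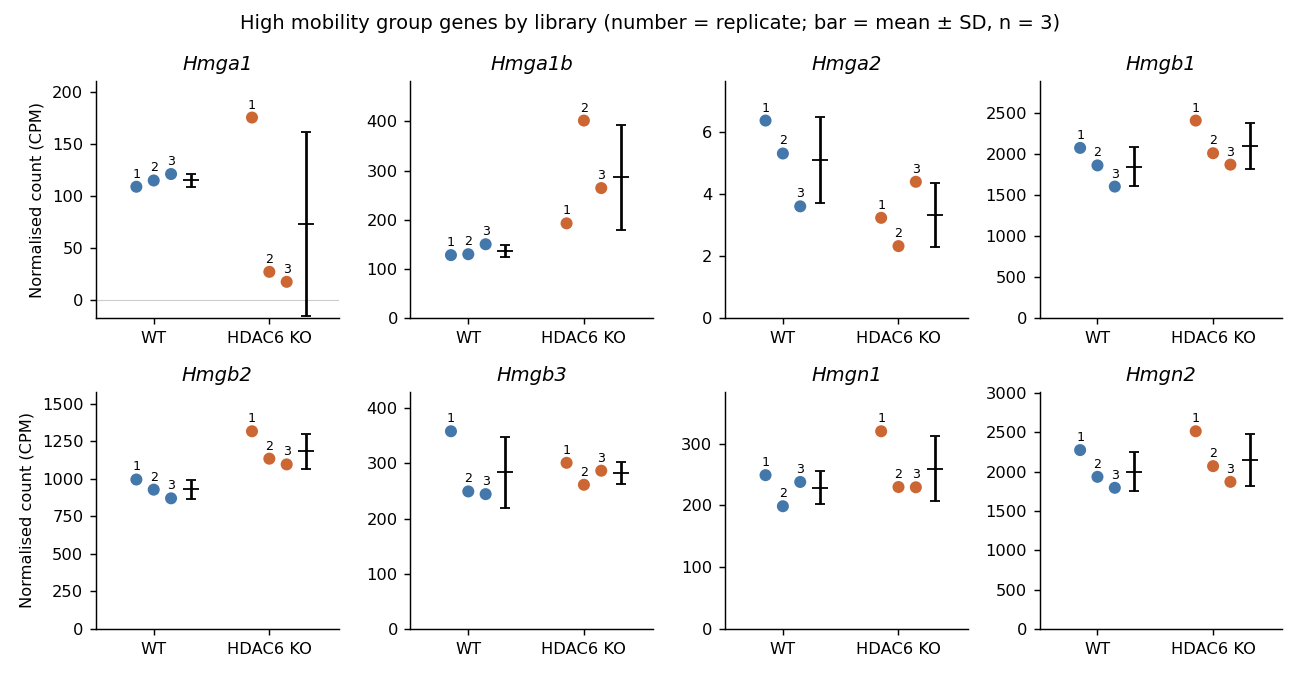
Each panel plots the TMM-normalised CPM of 1 member in the 6 libraries, with the replicate number at each point and the mean ± SD (n = 3) beside each group on a linear axis. The groups are separate for Hmga1b and Hmgb2 alone, and the knockout points of Hmga1 are spread from 17.55 to 175.38 CPM.

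The HMGN genes overlapped between the groups. Hmgn1 measured 249.1, 198.75 and 238.07 CPM in WT against 320.21, 229.88 and 229.47 CPM in knockout libraries, where knockout replicate 1 was the highest and the other 2 lay within the WT range. Its log2 fold change was 0.18 (SE 0.15), and ran from 0.01 without knockout replicate 1 to 0.27 without knockout replicate 3. Hmgn2 measured 2272.96, 1932.91 and 1793.55 CPM in WT against 2512.33, 2069.11 and 1869.34 CPM in knockout libraries. The ranges overlapped, and knockout replicate 1 was the highest of the 6 libraries. The log2 fold change was 0.10 (SE 0.13). It was -0.02 without knockout replicate 1 and 0.21 without WT replicate 1.

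Read together, 5 of the 8 members lay above WT by their fitted log2 fold change and 3 below, against 49.5% of all tested genes above. The median was 0.14 over the members and -0.0034 over all tested genes. The groups did not overlap in the higher direction for 2 members, Hmga1b and Hmgb2, where 8.86% of all tested genes were separated that way, and in the lower direction for 0 members, where 9.7% of genes were. By edgeR, 0 members were called at an adjusted p of 0.05, where 0.00777% of genes were (Hdac6 alone), and 2 members, both higher, had an unadjusted p under 0.05, where 7.24% of genes were higher at that level and 13.4% passed in either direction. DESeq2 called 1 member, Hmga1b, as higher, where it called 0.897% of genes higher and 0.456% lower. Without knockout replicate 1, edgeR called Hmga1 lower, where 0.0227% of genes were called lower and 0.00757% higher. Without knockout replicate 3 it called 0 members, where 0.229% of genes were called higher. Nothing is read from these counts, since the members were chosen on this contrast.

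**Figure D3:**
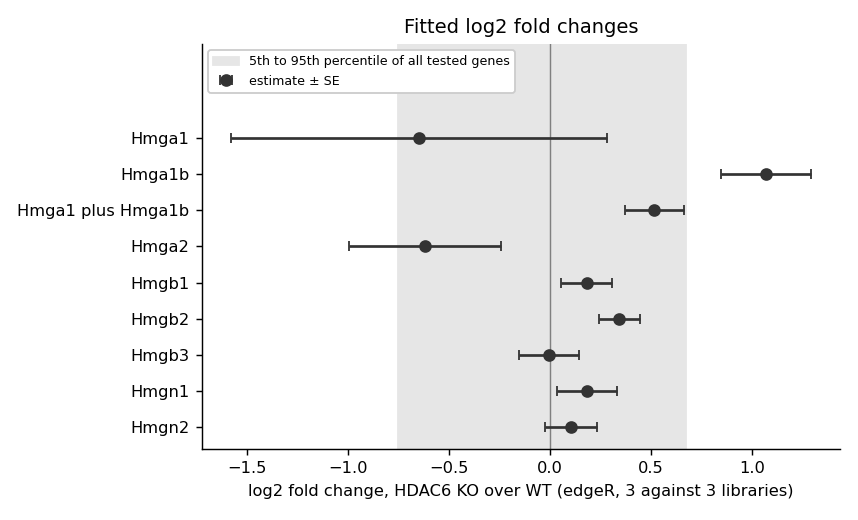
Points give the edgeR log2 fold change of knockout over WT for each member and for the summed counts of Hmga1 and Hmga1b, with bars of 1 SE, and the grey band spans the 5th to 95th percentile of all tested genes (-0.75 to 0.68). Hmga1b lies beyond the band at 1.07, the sum lies inside it at 0.52, and Hmga1 has the widest bar.

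Summed by family, HMGA counts were 256 ± 16.6 CPM in WT against 363 ± 72.7 CPM in knockout libraries, HMGB counts 3060 ± 356 and 3559 ± 409 CPM, and HMGN counts 2228 ± 259 and 2410 ± 379 CPM (SD, n = 3 each). The HMGA ranges were separate, as were those of the Hmga1 and Hmga1b sum that dominates them. The HMGB and HMGN ranges overlapped. Over the 6 libraries, Hmgb1 and Hmgn2 varied most alike among pairs of members (Pearson r = 0.95, log2 CPM) and Hmgb1 and Hmgb2 followed (r = 0.86). Hmga1 and Hmga1b had r = -0.78, in counts that share divided reads, and Hmga2 and Hmga1b had r = -0.79. These are descriptions over 6 libraries of 2 genotypes that share depth and scaling.

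Levels of different genes were compared on the deposited FPKM, which is per length. In WT, Hmgn2 was the highest member at 1975 FPKM, rank 16 of 16022 genes. Hmgb1 followed at 717 FPKM (rank 98) and Hmgb2 at 385 FPKM (rank 208). Hmgn1 at 238 FPKM and Hmgb3 at 209 FPKM were next, and their WT ranges overlapped. Hmga1b stood at 102 FPKM and Hmga1 at 80.5 FPKM, and Hmga2 was lowest at 1.49 FPKM (rank 10440). Apart from Hmgn1 and Hmgb3, neighbours in this order had separate WT ranges. Hmga1b was above Hmga1 in 6 of 6 libraries, but this order depends on how the shared reads were divided. In knockout replicate 2, Hmga1b reached 283.2 FPKM, above Hmgb3 at 180.52 FPKM and Hmgn1 at 225.51 FPKM.

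**Figure D4:**
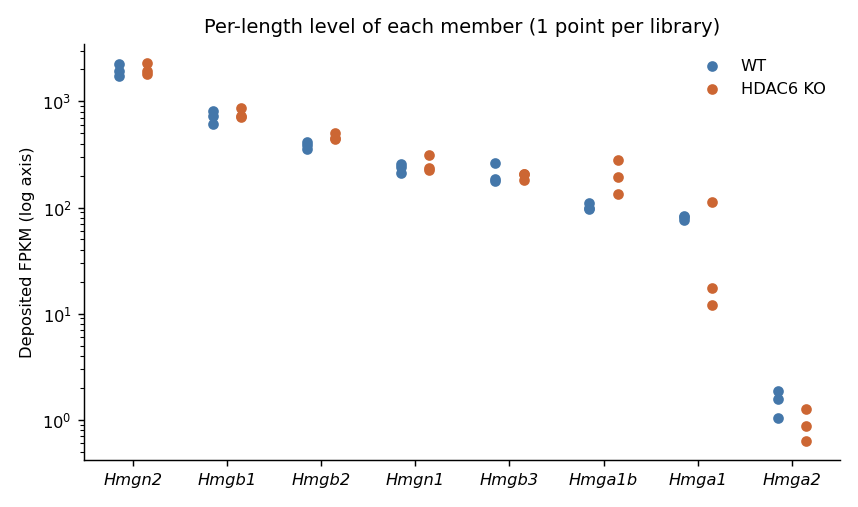
Each point is the deposited FPKM of 1 member in 1 library, on a log axis, with members in the order of their WT mean. Levels run from 1975 FPKM for Hmgn2 to 1.49 FPKM for Hmga2 in the WT mean, and the knockout points of Hmga1 fall on both sides of WT.

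Shared sequence was not limited to the HMGA pair. HMG genes are known for many processed copies in the genome. Of the 150-base windows of the longest coding transcript, 69.5% in Hmga1b, 51.9% in Hmga1, 38.5% in Hmgn2 and 21.6% in Hmgb1 occurred in a transcript of another gene. The share was 16.9% in Hmgb2, 10.2% in Hmgb3, 0.0494% in Hmgn1 and 0% in Hmga2. The deposited counts were not whole in 6 of 6 libraries for the first 4 of these genes and whole in 6 of 6 for the other 4. At 50 bases the order was less clean, with 36.8% in Hmgb1 and 34.2% in Hmgb3. For Hmgb1 and Hmgn2 no single gene completed the count to a whole number in all libraries (0 genes each). Their levels are uncertain to the extent that reads were divided with copies. Within the families, coding sequences were 80.3% identical between Hmgb1 and Hmgb2, 77.6% between Hmgb1 and Hmgb3, 78.3% between Hmga1 and Hmga2 and 75.1% between Hmgn1 and Hmgn2 over aligned bases, against 100% between Hmga1 and Hmga1b.

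**Figure D5:**
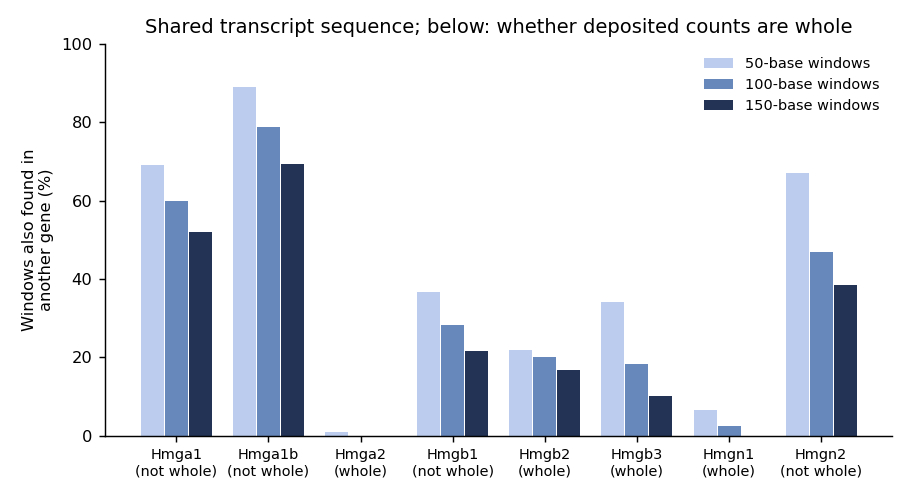
Bars give the percentage of windows of 50, 100 and 150 bases of each member's longest coding transcript that occur in a transcript of another gene, and the labels say whether the deposited counts are whole. The 4 members with counts that are not whole have the highest shares at 150 bases, 21.6% to 69.5%.

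Genes around the HMG proteins were read from 11 lists of 164 genes, of which 149 were tested. By edgeR 0 passed the adjusted threshold, where 0.00777% of all genes did. At an unadjusted p under 0.05, 32 were higher and 17 lower, which is 32.9% of the tested list genes against 13.4% of all genes. DESeq2 called 9 higher and 4 lower, where it called 0.897% of all genes higher and 0.456% lower. The lists were chosen with earlier results of these data known, so nothing is read from these shares or from those of single lists below. Since no gene of these lists passed the main test, their levels, fold changes and calls are given as a description.

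Among other HMG proteins, 4 of 10 tested genes lay above WT and 6 below (median log2 fold change -0.01), and DESeq2 called 0. Hmgxb3, an HMG-box protein, stood at 48.0 ± 5.79 CPM in WT against 62.2 ± 5.58 CPM in knockout libraries (log2 fold change 0.37, SE 0.14, edgeR adjusted p = 0.328). Hmgn5, an X-linked HMGN gene, stood at 52.0 ± 6.20 and 63.5 ± 3.85 CPM. Tox, an HMG-box factor of lymphoid development, was at 47.4 ± 14.4 CPM in WT against 22.6 ± 12.7 CPM in knockout libraries, with the lowest value, 9.14 CPM, in knockout replicate 2. Among 19 tested transcription and chromatin factors with an HMG box, 11 lay above WT and 8 below (median 0.06), and Hbp1 (-0.47), a repressor of cell cycle genes, Sox4 (-0.38) and Sox6 (-0.68) had the smallest p.

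Linker histones, with which HMGN proteins compete, lay below WT in 6 of 6 tested genes (median -0.26), but the summed level overlapped, at 92.4 to 165 CPM in WT against 103 to 127 CPM in knockout libraries. H1f2 was the 1 gene of the list whose groups were separate, at 6.15 ± 1.38 CPM in WT against 4.28 ± 0.18 CPM in knockout libraries. Of all tested genes, 9.7% were separate in that direction. H1f4 (-0.31) and H1f3 (-0.38) had the next smallest p, and their groups overlapped. At an unadjusted p under 0.05 there were 0 linker histone genes by edgeR, and DESeq2 called 0.

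Histone chaperones lay above WT in 15 of 17 genes (median 0.33, against -0.0034 for all genes), with 7 higher and 1 lower at an unadjusted p under 0.05, where 7.24% of all genes were higher and 6.15% lower. Chaf1a, the large subunit of chromatin assembly factor 1, measured 62.29, 37.98 and 65.3 CPM in WT against 131.24, 120.76 and 93.8 CPM in knockout libraries. Npm1, nucleophosmin, measured 771 ± 17.2 and 1110 ± 190 CPM, and Nap1l1 291 ± 16.6 and 396 ± 57.1 CPM. DESeq2 called Chaf1a and Npm1 higher, where it called 0.897% of all genes higher. In the SET complex, in which HMGB2 was found, 6 of 8 genes lay above WT (median 0.29), with 4 higher and 0 lower at an unadjusted p under 0.05 against the same shares of all genes. Set stood at 852 ± 19.9 and 1082 ± 170 CPM, Anp32b at 118 ± 44.9 and 244 ± 87.7 CPM and Anp32e at 287 ± 21.0 and 346 ± 27.2 CPM (SD, n = 3 each). Knockout replicate 1 was the highest library for each of these 6 genes, as it was for Hmgb2.

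Markers of dividing cells were read beside Hmgb2. Of 24 such genes 23 lay above WT (median 0.28), and 12 were higher at an unadjusted p under 0.05 and 0 lower, where 7.24% of all genes were higher and 6.15% lower. DESeq2 called Ccna2, Plk1 and Ccne1 higher, where it called 0.897% of all genes higher. Their summed level was 7751 to 8327 CPM in WT against 8465 to 10567 CPM in knockout libraries, highest in knockout replicate 1. Mki67, a defining marker, was at 224 ± 11.4 CPM in WT against 220 ± 21.5 CPM in knockout libraries. The part of dividing cells in the HMG levels was not tested, and in bulk RNA fewer cells of a type and less RNA per cell cannot be told apart. Markers of the LSK gate lay below WT in 8 of 12 genes (median -0.29), with a summed level of 4789 to 5335 CPM in WT against 3802 to 4931 CPM in knockout libraries. DESeq2 called Kit (-0.54) lower and Ly6a (0.71) higher, where it called 0.456% of all genes lower and 0.897% higher. Mecom (-0.74), a stem cell transcription factor, had the next smallest p. Of 23 markers of mature blood cells 17 were tested, 6 above WT and 11 below (median -0.67), and their summed level was 434 to 518 CPM in WT against 366 to 592 CPM in knockout libraries. DESeq2 called Ncr1 and Gzma, of natural killer cells, higher and the neutrophil genes Ltf, Ngp and S100a8 lower, where it called 0.897% of all genes higher and 0.456% lower. Ncr1 measured 0.65, 1.56 and 2.54 CPM in WT against 1.62, 7.5 and 14.1 CPM in knockout libraries. Gzma measured 0.39, 0.39 and 0.34 CPM in WT against 0.29, 7.47 and 2.43 CPM in knockout libraries. Both were highest in knockout replicates 2 and 3, the libraries whose split of Hmga1 and Hmga1b stood apart. Nkg7, another natural killer cell gene and the highest of the list, was at 286 ± 25.4 CPM in WT against 280 ± 28.7 CPM in knockout libraries (log2 fold change -0.03). Nkg7 was the largest part of the summed level of the list, and Csf1r added 208 CPM to that sum in knockout replicate 2. The part of mature cells in the HMG levels was not tested.

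In the LIN28 and let-7 list, Lin28b, which blocks let-7 maturation, was at most 0.96 CPM in any library and Igf2bp1 had 0 counts in all 6. Lin28a was at most 0.49 CPM. Igf2bp2, an RNA-binding protein downstream of Hmga2, stood at 4.23 ± 1.32 CPM in WT against 3.55 ± 0.82 CPM in knockout libraries, and Igf2bp3 at 2.93 ± 0.24 and 3.00 ± 1.37 CPM. Of 14 tested genes of the list 8 lay above WT and 6 below (median 0.01). Tut4, a terminal uridylyl transferase that acts on let-7 precursors, had a log2 fold change of -0.46 and Ccnd2, cyclin D2, one of -0.29. Nras, a small GTPase and let-7 target, measured 118.16, 148.12 and 159.67 CPM in WT against 181.51, 164.52 and 177.44 CPM in knockout libraries, with separate groups (log2 fold change 0.30, SE 0.13). Nras was the 1 gene of the list separate in that direction, as were 8.86% of all tested genes. DESeq2 called 0 genes of the list.

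Receptors and signal proteins of extracellular HMGB1 lay above WT in 7 of 13 tested genes and below in 6 (median 0.02). Trem1, a myeloid receptor, measured 1.29, 2.37 and 0.87 CPM in WT against 7.45, 14.07 and 2.03 CPM in knockout libraries. Its groups overlapped through knockout replicate 3. Trem1 was the 1 gene of the list that DESeq2 called, as higher, against 0.897% of all genes called higher. Myd88, the adaptor of Toll-like receptors, had a log2 fold change of 0.40 (SE 0.16). Cxcl12, a chemokine that binds HMGB1, was low, at 1.59 ± 1.23 CPM in WT against 0.65 ± 0.43 CPM in knockout libraries. Of 10 genes of V(D)J recombination, in which HMGB1 and HMGB2 are cofactors, 2 lay above WT and 8 below (median -0.17), and 0 reached an unadjusted p under 0.05 by edgeR or a call by DESeq2. Rag2 was at 16.0 ± 3.52 CPM in WT against 11.5 ± 1.51 CPM in knockout libraries, and Dclre1c (-0.26) and Xrcc5 (-0.23) had the next smallest p.

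The genes most like each member were ranked by Pearson r of log2 CPM over the 6 libraries among tested genes with a mean of at least 5 CPM. For Hmga1 these were Hmces (r = 0.99), Cep152 (0.97) and Gm6958 (0.97). Of these, Gm6958 varied most, at 35.54, 49.47 and 48.68 CPM in WT against 41.75, 11.49 and 8.96 CPM in knockout libraries. Its knockout replicate 1 lay within the WT range, where that of Hmga1 lay above it. Hmces, at 58.85 to 68.92 CPM, varied little in size. Ticam2 was the least like Hmga1 (r = -0.997). For Hmga1b the most alike were Clec7a (0.99), Gbp3 (0.98) and Swt1 (0.98), and Ccnk was the least (-0.99). Gbp3, an interferon-induced GTPase, measured 63.12, 65.31 and 67.95 CPM in WT against 72.05, 125.22 and 93.07 CPM in knockout libraries. The closest gene was Orc2, of the origin recognition complex, for Hmgb2 (0.99), Brix1 for Hmgb1 (0.99), Mrps9 for Hmgn2 (0.99), Nudcd1 for Hmgn1 (0.98), Ebpl for Hmgb3 (0.98) and Alkbh4 for Hmga2 (0.997). With 6 libraries and many genes ranked, high values of r arise readily and are given as a description.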

How the data were processed

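Per the labels' protocols, Trizol was used to extract the RNA. Per the submitters' processing notes, the build was GRCm39 and the tools were featureCounts 2.0.3, DESeq2, HISAT2 2.2.1 and SAMtools 1.13, without saying which made which values. The sources used here do not give the annotation, the strand setting or the treatment of shared reads. Per the file headers, each gene and library has an FPKM value and an estimated count, as the authors deposited them. In each library 19.6% to 20.9% of the estimated counts were not whole, and they were rounded before testing.

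Knockout was compared with WT by edgeR 4.0.16 (R 4.3.3, quasi-likelihood test, robust dispersion) after filterByExpr (minimum count 10) and TMM normalization (factors 0.952 to 1.03), with an adjusted p threshold of 0.05 over 12875 genes. SEs are the log2 fold change over the root of F. For the sum, the deposited counts of both genes formed 1 row. The test was checked on simulated data. Alternatives were RLE, upper-quartile and library-size scaling, DESeq2 1.42.0, no filter, a stricter filter (5 CPM in 3 libraries), limma-voom with sample weights (limma 3.58.1), non-robust dispersion, limma on log2(FPKM + 1), a replicate block and each library left out. Transcripts came from GENCODE M21 (GRCm38), which is not the build of the files, so no coordinates are given, and let-7g-5p from RefSeq. Library pairs differed beyond sampling noise (25.8 to 91.4 as chi-square per degree of freedom), so each counted as 1 sample. By this measure knockout replicate 3 was nearer to WT replicates 1 to 3 (35.49, 34.26 and 25.76) than to knockout replicates 1 and 2 (58.42 and 53.79). Knockout replicates 1 and 2 were nearer to each other (45.75) than to any WT library (54.9 to 91.44). A count of 0 allows up to 3 counts, 0.104 to 0.115 CPM, from counting error alone.

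Members and gene lists were chosen with earlier results of these data known. Named genes were the members, Hdac6, the 3 genes of each list with the smallest p and the genes most like each member. Other genes named were chosen after their values were seen.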

Additional observations from a re-analysis of the deposited data

How the results depend on the processing

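The log2 fold changes of the members and of the Hmga1 and Hmga1b sum were recomputed under up to 16 alternatives. Hmga1, Hmga1b, their sum, Hmga2, Hmgb1, Hmgb2 and Hmgn1 kept their sign throughout; Hmgb3 changed sign under 7 and Hmgn2 under 1. Hmga1 ran from -2.36 to -0.18, its sum with Hmga1b from 0.37 to 0.67 and Hmga1b from 0.75 to 1.29, in each case when 1 knockout library was left out. Hmga1 was -1.45 with the weighted voom fit and with the replicate block, and -1.43 on FPKM. Hmga2 fell below the stricter filter and has no value there. DESeq2 called 120 genes higher and 61 lower (9 and 4 in the fixed lists), against 0 and 1 (0 and 0) by edgeR. Leaving out each library in turn gave 0 to 30 higher and 1 to 14 lower genes, and 0 to 4 and 0 to 2 in the lists, the highest without knockout replicate 3. The cause was not tested. The replicate block called 0 genes higher and 1 lower, as without it. Deviations of same-numbered libraries correlated at 0.03, -0.04 and -0.12. With 3 libraries per group, these values cannot settle whether the numbers pair the samples, and the labels do not say that they do.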

Other observations

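The nearest 3 tested genes on each side of Hmga1 and of Hmga1b in the gene order of GENCODE M21 were read after the values of both were known. Beside Hmga1 on chromosome 17, Uqcc2, Lemd2, Grm4, AI413582, Nudt3 and Rps10 overlapped between the groups in 6 of 6 cases. Nudt3, for example, measured 27.25, 28.25 and 27.52 CPM in WT against 24.38, 29.18 and 27.52 CPM in knockout libraries, with knockout replicates 2 and 3 at or above WT replicate 3. Beside Hmga1b on chromosome 11, Dcxr, at 30.12, 22.31 and 21.31 CPM in WT against 15.83, 19.72 and 19.69 CPM in knockout libraries, and Cbr2, at 0.92 to 1.04 CPM in WT against at most 0.4 CPM in knockout libraries, were lower with separate groups, as were 9.7% of all tested genes, and Lrrc45, Rfng, Gps1 and Dus1l overlapped. By edgeR 0 of the 12 neighbours passed the adjusted threshold.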
